A study of Mus musculus with 9 samples.

Results

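The 10 genes described here make and load MHC class I molecules: the light chain B2m, the heavy chains H2-K1 and H2-D1, the peptide transporter genes Tap1 and Tap2, the loading factor Tapbp, the immunoproteasome subunits Psmb8, Psmb9 and Psmb10, and the transactivator Nlrc5. They were taken by name from a table of 17314 genes, in which all 10 were present, and all 10 were among the 13044 genes that passed the filter on low counts. RNA was sequenced from gastrocnemius, the large calf muscle, of mice aged 6, 15 and 21 months, with 3 mice and 3 libraries at each age. The titles call these ages youth, mid and old. The sources used here do not give strain, sex, genotype or any treatment, and the groups differ in the labels by age alone. The series title links thyroid hormone receptor alpha with muscle aging, and the comparisons below ask how the class I pathway differed between the 3 ages. Total counts ran from 15354396 to 17317856 per library. The muscle fibre markers on the fixed list, led by Myh4 and Acta1, summed to 112000 to 160000 CPM (counts scaled to library size with TMM factors) per library. Mouse 2 at 6 months, mouse 1 at 15 months and mouse 3 at 21 months were known from earlier results to stand apart in slow fibre genes, and the slow myosin Myh7 had 2.325, 0.4381 and 12.75 CPM at 6 months, 166.2, 49.68 and 22.74 CPM at 15 months and 4.688, 18.67 and 155.9 CPM at 21 months. P-values below weigh differences between ages against the variation between these mice. In edgeR that variation was estimated for each gene over the 3 ages together.

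MHC class I molecules carry peptides of the cell's own proteins to the surface, where cytotoxic T cells read them. Proteasomes cut the proteins, the TAP transporter moves the peptides into the endoplasmic reticulum, and tapasin holds the empty heavy chain and B2m beside the transporter until a peptide binds. Interferon gamma replaces the 3 catalytic subunits of the constitutive proteasome with those of the immunoproteasome, and NLRC5 is the transactivator that works at class I promoters through the W/S, X and Y boxes. Resting muscle fibres are known for a low surface level of class I, while endothelial and immune cells in the same tissue carry more.

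All class I members except Nlrc5, B2m and Psmb10 lie on chromosome 17. In mm10 coordinates Tapbp spans chr17:33919478-33929290, H2-K1 chr17:33996012-34000619, Psmb9 chr17:34182030-34187330, Tap1 chr17:34187556-34197225, Psmb8 chr17:34198195-34201454, Tap2 chr17:34204479-34216321 and H2-D1 chr17:35263094-35267497. B2m lies at chr2:122147687-122153082, Nlrc5 at chr8:94434335-94527272 and Psmb10 at chr8:105935728-105938392. Psmb9 and Tap1 are read in opposite directions with 225 bases between them by these RefSeq coordinates, and their promoter windows share 275 bases.

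Promoters of 6 members are shown, to place the class I control boxes in B2m, the heavy chains and Tap1 and to set beside them Psmb8 and Tapbp, which hold other matches. The window of Psmb9 is nearly that of Tap1 on the other strand and is not repeated, and that of Psmb10 held no match. Each window runs from 250 bases before the RefSeq start site to 50 after it (GRCm38.p6, the assembly of mm10), 5′ to 3′ on the gene's own strand, and capitals mark every match to 5 motifs searched on both strands. These were the interferon regulatory factor element (GAAA, any 2 bases, GAAA), the STAT element (TTCNNNGAA), the Y box (CCAAT), the core of the X2 box (TGACG) and the kappa B element (GGG, any 2 bases, TT, any base, CC). RefSeq gives H2-K1 a second start site nearby, whose window holds the same 4 matches. Both of these start sites lie inside the H2-K1 span given above, so neither is the outermost 5′ end of that span. Positions count from the start site as 0.
B2m, chr2:122147437-122147736, plus strand: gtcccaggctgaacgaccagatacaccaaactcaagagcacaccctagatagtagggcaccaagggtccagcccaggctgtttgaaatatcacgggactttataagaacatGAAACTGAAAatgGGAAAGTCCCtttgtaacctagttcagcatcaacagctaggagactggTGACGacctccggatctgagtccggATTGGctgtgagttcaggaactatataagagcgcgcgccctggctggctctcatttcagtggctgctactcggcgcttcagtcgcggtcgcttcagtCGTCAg
H2-K1, chr17:34000284-34000583, minus strand: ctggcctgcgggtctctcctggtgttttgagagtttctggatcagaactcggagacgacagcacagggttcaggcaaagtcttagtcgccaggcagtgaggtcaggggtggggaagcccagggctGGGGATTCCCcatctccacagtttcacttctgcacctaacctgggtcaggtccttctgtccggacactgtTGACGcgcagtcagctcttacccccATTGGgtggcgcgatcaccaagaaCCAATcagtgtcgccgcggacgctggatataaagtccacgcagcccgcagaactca
H2-D1, chr17:35262844-35263143, plus strand: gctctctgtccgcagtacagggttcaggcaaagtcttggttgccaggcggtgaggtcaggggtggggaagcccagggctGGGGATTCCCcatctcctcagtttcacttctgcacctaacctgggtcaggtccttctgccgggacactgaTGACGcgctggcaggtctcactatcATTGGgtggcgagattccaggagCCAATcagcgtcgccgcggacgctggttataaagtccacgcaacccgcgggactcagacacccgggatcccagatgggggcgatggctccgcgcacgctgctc
Tap1, chr17:34187306-34187605, plus strand: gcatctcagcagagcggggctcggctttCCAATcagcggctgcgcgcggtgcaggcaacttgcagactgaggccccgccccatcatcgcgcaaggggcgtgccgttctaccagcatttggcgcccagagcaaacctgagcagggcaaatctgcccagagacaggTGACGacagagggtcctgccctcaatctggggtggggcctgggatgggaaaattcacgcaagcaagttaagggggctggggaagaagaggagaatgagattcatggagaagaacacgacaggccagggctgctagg
Psmb8, chr17:34197945-34198244, plus strand: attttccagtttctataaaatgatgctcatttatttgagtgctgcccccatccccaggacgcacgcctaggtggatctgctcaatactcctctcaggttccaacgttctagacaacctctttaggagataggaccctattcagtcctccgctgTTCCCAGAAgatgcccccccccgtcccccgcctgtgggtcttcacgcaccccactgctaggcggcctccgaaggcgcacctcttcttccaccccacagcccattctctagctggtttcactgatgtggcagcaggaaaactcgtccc
Tapbp, chr17:33919228-33919527, plus strand: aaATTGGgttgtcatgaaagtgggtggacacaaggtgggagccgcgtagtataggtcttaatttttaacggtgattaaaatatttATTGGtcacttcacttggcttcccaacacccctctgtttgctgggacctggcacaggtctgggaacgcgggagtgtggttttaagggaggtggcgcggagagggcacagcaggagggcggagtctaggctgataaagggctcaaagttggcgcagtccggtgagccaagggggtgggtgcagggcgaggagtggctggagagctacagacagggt

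H2-K1 and H2-D1 held the same 3 kinds of match in the same order: GGGGATTCCC for kappa B, then TGACG, then the Y box on both strands, ATTGG before CCAAT. An alignment of these windows matched 229 of 253 aligned bases, or 90.5%. In B2m the interferon regulatory factor element GAAACTGAAA lay at -139 to -130, followed by a kappa B match at -126 to -117, TGACG at -78 to -74 and ATTGG at -53 to -49. Tap1 held CCAAT at -222 to -218 and TGACG at -86 to -82, and because the windows overlap Psmb9 holds the same sites on its own strand. Windows were found for 8 of the 10 members, and those of Tap2 and Nlrc5 were not used here. TGACG was present in the windows of 5 of these 8 genes (B2m, H2-D1, H2-K1, Tap1 and Psmb9) and in 20.8% of all 32851 windows. CCAAT was present in 6, the same 5 and Tapbp, against 37.4% of windows. The kappa B letters were present in 3 (B2m, H2-D1 and H2-K1) against 4.79%, the interferon regulatory factor element in B2m against 3.44%, and the STAT element in Psmb8 against 8.3%. None of the 5 motifs overlapped another within the 6 windows printed. A match describes letters only, and a site that departs from the letters searched was not marked. The lack of a match is therefore not the lack of a site.

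Before the differences between ages, the levels show how unequal the members were. Levels are given per kilobase of merged exon, which joins all annotated exons of a gene and can exceed the length of 1 transcript. The merged lengths ran from 860 bases for B2m to 8493 for Nlrc5, and the order of genes depends on them. On this scale B2m stood highest at 160 CPM per kb (mean of 9 mice, range 125 to 246). H2-D1 followed at 48.9 and H2-K1 at 38.6 CPM per kb. H2-D1 was higher than H2-K1 in 9 of 9 mice, although their ranges overlapped. Tapbp stood at 13.7 CPM per kb, Psmb10 at 4.73 and Tap2 at 4.02, and the order of the last pair held in 6 of 9 mice only. Psmb8 stood at 2.25, Tap1 at 1.09, Psmb9 at 0.661 and Nlrc5 at 0.359 CPM per kb. The constitutive subunits were above their immunoproteasome counterparts, at 111 CPM per kb for Psmb5, 60.5 for Psmb6 and 69.2 for Psmb7. The size of this gap depends on the merged lengths, 899 bases for Psmb5 and 3381 for Psmb8. In CPM without length the means were 99.6 for Psmb5 and 7.62 for Psmb8. They were 113 for Psmb6 and 2.42 for Psmb9, and 237 for Psmb7 and 8.07 for Psmb10. Deposited counts at the low end were small, 32 to 108 reads for Nlrc5 and 28 to 66 for Psmb9, so that counting error adds to the spread between mice there.

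Some of these counts cannot be assigned to 1 gene with certainty. Of the 50-base words in the transcripts of H2-D1, 12.8% also occur in transcripts of other genes, chiefly H2-Q1, H2-K1 and H2-Q7, and for H2-K1 the share was 9.63%. B2m and Psmb10 shared 0% of their words. The sources used here do not say if strand was used in counting. On the opposite strand 24.9% of the exonic bases of Tapbp lie in the antisense RNA Gm19412, 14.7% of those of Psmb8 in Gm20496, and 14.1% of those of Tap2 in Gm15821. In the GENCODE annotation used for these overlaps, 212 exonic bases are shared by Tap1 and Psmb9, which do not overlap in RefSeq. Reads of these stretches cannot be told apart without strand.

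**Figure D1:**
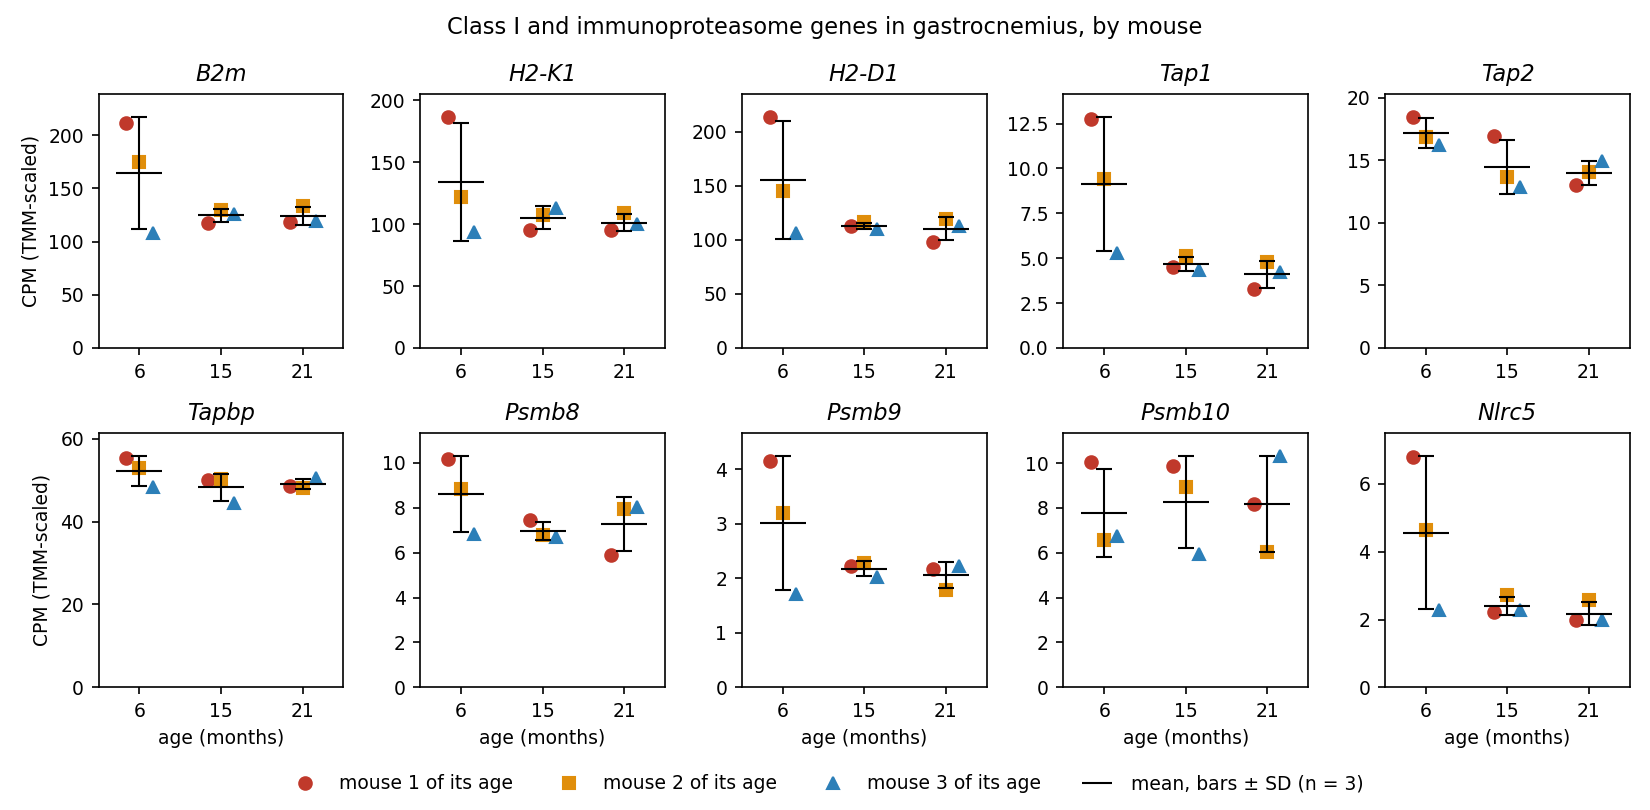
CPM (TMM-scaled, vertical axis from 0) of each of the 10 genes in each mouse against age in months, with the mean and SD of 3 mice as black bars. In 9 of 10 genes mouse 1 of the 6-month group is the highest of the 9 mice, and in Psmb10 it is mouse 3 of the 21-month group.

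Within the 6-month group, 2 of the 3 mice carried more class I RNA than the older mice, and the third did not. B2m, the light chain that every class I molecule needs, stood at 211, 175 and 108 CPM in mice 1, 2 and 3 at 6 months. It stood at 117, 130.0 and 126 CPM at 15 months and at 118, 134 and 119.6 CPM at 21 months. Mice 1 and 2 at 6 months thus lay above all 6 older mice, and mouse 3 lay below all of them. H2-K1, a classical heavy chain, stood at 187, 122 and 93.3 CPM at 6 months, at 95.3, 107 and 113 CPM at 15 months and at 94.8, 109 and 99.8 CPM at 21 months. The order was the same as for B2m, with the young group spanning both ends of the 9 mice. H2-D1, the other classical heavy chain, stood at 214, 145 and 106 CPM at 6 months, at 112, 116 and 110 CPM at 15 months and at 98.4, 119 and 113 CPM at 21 months. Here mouse 3 at 6 months lay within the range of the older mice.

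Tap1, which forms the transporter with Tap2, showed the widest separation of ages. It stood at 12.8, 9.39 and 5.27 CPM at 6 months, at 4.53, 5.12 and 4.36 CPM at 15 months and at 3.31, 4.77 and 4.26 CPM at 21 months. All 3 young mice lay above all 6 older ones, mouse 3 by a narrow margin. Tap2 varied less, at 18.5, 16.8 and 16.2 CPM at 6 months, 16.9, 13.6 and 12.9 CPM at 15 months and 12.98, 14.02 and 14.94 CPM at 21 months. Every young mouse lay above every mouse of 21 months, and mouse 1 at 15 months lay among the young. Tapbp, which encodes tapasin, was the steadiest member, from 44.5 CPM in mouse 3 at 15 months to 55.4 CPM in mouse 1 at 6 months, with overlapping groups.

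Of the immunoproteasome subunits, Psmb9 followed the class I chains and Psmb10 did not. Psmb9, the counterpart of Psmb6, stood at 4.15, 3.19 and 1.72 CPM at 6 months, 2.23, 2.28 and 2.02 CPM at 15 months and 2.16, 1.79 and 2.22 CPM at 21 months. Again mice 1 and 2 at 6 months lay above and mouse 3 below all 6 older mice. Psmb8, the counterpart of Psmb5, stood at 10.2, 8.83 and 6.81 CPM at 6 months, 7.44, 6.78 and 6.70 CPM at 15 months and 5.89, 7.93 and 8.03 CPM at 21 months, and its groups overlapped. Psmb10, the counterpart of Psmb7, stood at 10.1, 6.57 and 6.74 CPM at 6 months, 9.86, 8.94 and 5.94 CPM at 15 months and 8.17, 6.03 and 10.3 CPM at 21 months, each group covering nearly the same range.

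Nlrc5, the transactivator, had the largest ratio between young mice. It stood at 6.79, 4.63 and 2.27 CPM at 6 months, 2.23, 2.71 and 2.27 CPM at 15 months and 1.98, 2.57 and 1.98 CPM at 21 months. Mouse 1 at 6 months held 2.99 times the level of mouse 3 of its group, and mouse 3 held 0.99 times the mean of the 6 older mice. For H2-D1, B2m and H2-K1 the ratio of mouse 1 to mouse 3 was 2.01, 1.96 and 2.0, for Tap1 and Psmb9 2.42 each, for Psmb8 1.5 and Psmb10 1.49, and for Tapbp and Tap2 1.15 and 1.14.

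Over the 10 members, mouse 1 at 6 months was the highest of the 9 mice in 9, which held for 10.2% of the 13044 genes tested. Mouse 1 at 6 months lay above all 6 older mice in 9 members, against 18.1% of genes tested, and mouse 2 in 8 members, against 25.7%. Mice 1 and 2 at 6 months were the top pair in that order in 8 members, against 2.38% of genes tested. Mouse 3 at 6 months lay within the range of the 6 older mice in 6 members, against 60.0% of genes tested. The coefficient of variation was larger at 6 months than at both other ages in 8 members, against 44.0% of genes tested. For Nlrc5 it was 49.5% at 6 months, 11.1% at 15 months and 15.5% at 21 months. For B2m it was 31.9, 5.20 and 6.95% at these ages. These counts were made after the values had been seen and describe these mice.

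**Figure D2:**
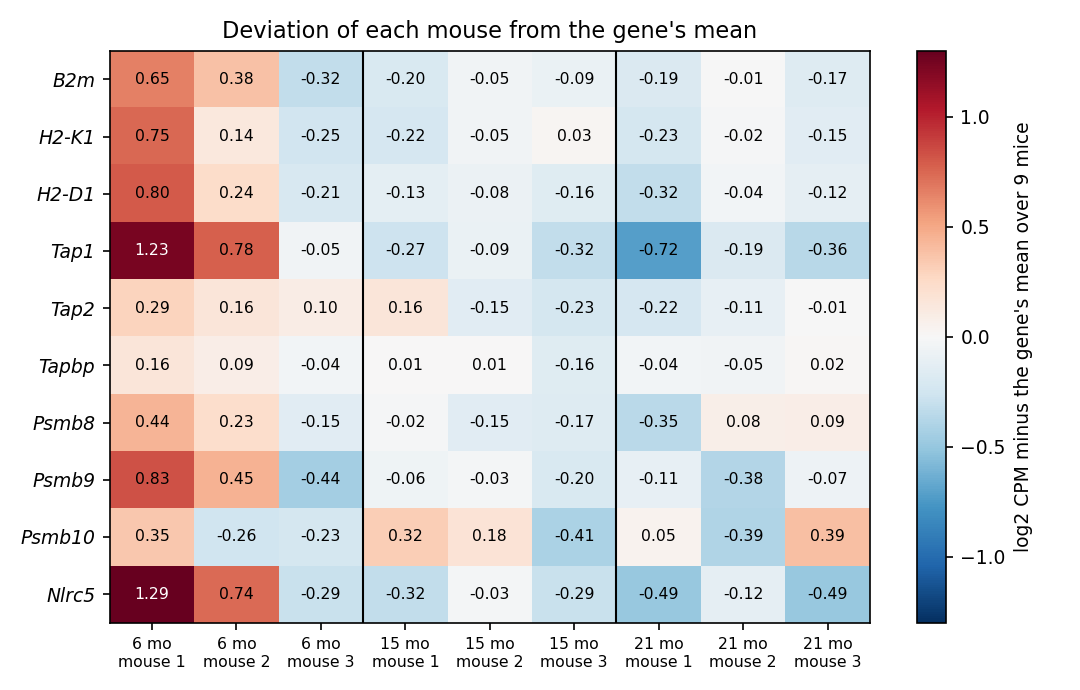
Each cell gives a gene's log2 CPM in 1 mouse (columns, grouped by age) minus that gene's mean over the 9 mice, on a colour scale from blue (below) to red (above). The red block is mice 1 and 2 of the 6-month group, reaching 1.29 for Nlrc5 and 1.23 for Tap1 in mouse 1, and the row of Psmb10 follows another order.

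At 21 against 6 months, 0 of the 10 members passed an adjusted p of 0.05 (edgeR quasi-likelihood test over all 13044 genes), where 0.0153% of all genes passed. At an unadjusted p under 0.05 there were 4 members, all lower, in a table where 5.5% of genes were lower at that level. These were H2-D1, Tap1, Tap2 and Nlrc5. DESeq2 called 1 member, Tap1, where it called 1.53% of genes, and limma voom with sample quality weights called 0. The median log2 fold change of the members, older minus younger, was -0.41 against -0.01 over all genes tested, and 9 of 10 were below 0, as were 52.0% of all genes. Tap1 had the largest difference, from 9.14 ± 3.75 CPM at 6 months to 4.11 ± 0.745 CPM at 21 months (SD, n = 3 mice per age). On the log2 scale this was -1.15 (SE 0.28, edgeR adjusted p = 0.177, DESeq2 adjusted p = 0.0177). Nlrc5 followed, from 4.56 ± 2.26 to 2.18 ± 0.338 CPM, at -1.06 (SE 0.34, edgeR adjusted p = 0.296, DESeq2 adjusted p = 0.147). Its groups overlapped, since mouse 3 at 6 months lay below mouse 2 at 21 months.

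Among the chains at 21 against 6 months, H2-D1 differed by -0.49 (SE 0.21), B2m by -0.41 (SE 0.20) and H2-K1 by -0.40 (SE 0.21) on the log2 scale, with edgeR adjusted p of 0.430, 0.486 and 0.517. For B2m the means were 165 CPM at 6 months and 124 CPM at 21 months, and the SD at 6 months, 52.6 CPM, exceeds their difference. Tap2 differed by -0.30 (SE 0.13), Tapbp by -0.09 (SE 0.09), Psmb8 by -0.24 (SE 0.18) and Psmb9 by -0.55 (SE 0.29). Psmb10 stood the other way at 0.07, with a 95% interval of -0.50 to 0.64. Tap1 and Tap2 were the members in which every mouse of 21 months lay below every mouse of 6 months, 2 of 10 where 8.31% of all genes tested did so.

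The call on Tap1 differed between tools with all 9 mice, and in edgeR it changed with mouse 3 at 6 months. Without that mouse edgeR called Tap1, at -1.42 (adjusted p = 0.0383), where it called 0.318% of genes tested and the members' median was -0.62. Over all alternatives the adjusted p of Tap1 ranged from 0.0177 to 0.511. Without mouse 1 at 6 months the median was -0.19, with 9 of 10 members still below 0, and Tap1 stood at -0.83, Nlrc5 at -0.66, H2-D1 and B2m at -0.19 each and H2-K1 at -0.09.

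At 15 against 6 months the members stood nearly where they did at 21 months, a comparison that shares the 6-month mice with the one above. By edgeR 0 of 10 members passed, where 0.00767% of all genes did. DESeq2 and limma voom called 0, DESeq2 calling 0.874% of all genes. The share of all genes called by limma voom was not counted for this comparison. At an unadjusted p under 0.05 there were 3 members, all lower (H2-D1, Tap1 and Nlrc5), where 5.38% of genes were. The median log2 fold change was -0.38 against -0.007 over all genes, and 9 of 10 members were below 0, as were 51.4% of genes. Tap1 stood at -0.97 (SE 0.28, edgeR adjusted p = 0.329), with every mouse of 15 months below every mouse of 6 months, as for 7.14% of genes tested. Nlrc5 stood at -0.92 (SE 0.34), Psmb9 at -0.47 (SE 0.29), H2-D1 at -0.46 (SE 0.21), B2m at -0.40 (SE 0.20), H2-K1 at -0.35 (SE 0.21), Psmb8 at -0.30 (SE 0.18), Tap2 at -0.25 (SE 0.13) and Tapbp at -0.11 (SE 0.09). Psmb10 stood at 0.08 (SE 0.26). Without mouse 1 at 6 months the median was -0.17. Without mouse 3 at 6 months it was -0.59 and Tap1 stood at -1.24 (edgeR adjusted p = 0.0723), where 0.0758% of genes tested passed.

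Between 15 and 21 months the members' values lay close together. The log2 fold changes ran from -0.18 for Tap1 to 0.06 for Psmb8, with a median of -0.04 against -0.003 over all genes tested. By edgeR, DESeq2 and limma voom 0 of 10 members passed, and 0 had an unadjusted p under 0.05. Of all genes edgeR called 0.0% and DESeq2 0.023%, while 1.82% had an unadjusted p under 0.05 and 0.736% were lower at that level. Below 0 were 8 members and 50.8% of genes, and in 0 members did every mouse of 21 months lie below every mouse of 15 months, as in 3.3% of genes. The intervals still allow differences. For B2m the 95% interval ran from -0.45 to 0.43, for Tap1 from -0.83 to 0.47 and for Nlrc5 from -0.94 to 0.65. A test of any difference among the 3 ages called 0 members in edgeR, which called 0.0% of genes, and 0 in limma voom. The smallest edgeR adjusted p was 0.283 for Tap1. Under an unadjusted edgeR p of 0.05 were 2 members (Tap1 and Nlrc5), where 8.55% of genes were. DESeq2 called Tap1 alone, where it called 1.56% of genes. The share of all genes called by limma voom was counted neither for this test nor for 21 against 15 months.

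**Figure D3:**
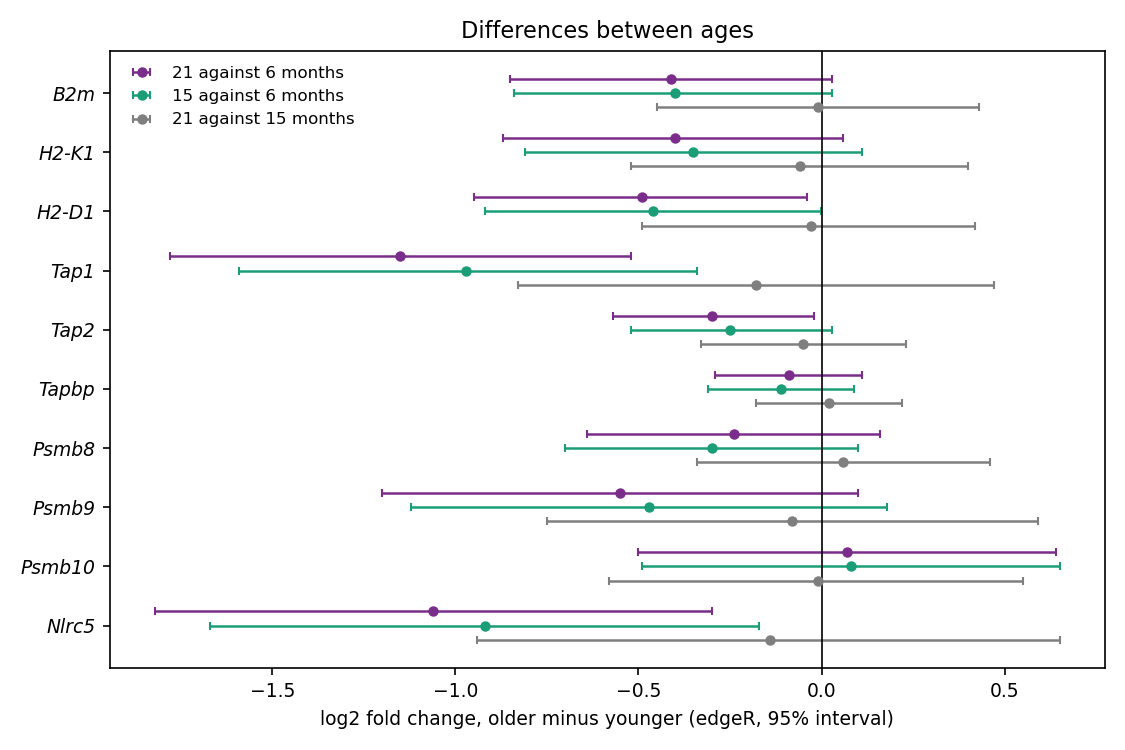
Log2 fold change of each gene, older minus younger (horizontal axis), for the 3 comparisons, with 95% intervals from the edgeR fit to 9 mice. Values for 21 and for 15 against 6 months lie side by side below 0 in every gene but Psmb10, and those for 21 against 15 months run from -0.18 to 0.06.

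The immunoproteasome subunits were next set against the constitutive subunits they replace, a ratio within each library that does not depend on its scaling. Psmb5, Psmb6 and Psmb7 themselves did not pass at 21 against 6 months, at -0.03 (SE 0.13), -0.16 (SE 0.14) and -0.17 (SE 0.14) with edgeR adjusted p of 0.958, 0.734 and 0.718. CPM of Psmb9 amounted to 3.88, 2.09 and 1.63% of that of Psmb6 in the 6-month mice, to 2.15, 2.07 and 1.79% at 15 months and to 1.88, 1.74 and 2.04% at 21 months. In this ratio mouse 1 at 6 months stood apart and the other 8 mice overlapped. The denominators matter for mouse 2 at 6 months, which had the highest Psmb5, Psmb6 and Psmb7 of the 9 mice (119.4, 152.7 and 318.0 CPM). This lowers its ratios, although its Psmb9 CPM was the second highest. CPM of Psmb8 amounted to 9.92, 7.39 and 8.32% of that of Psmb5 at 6 months, to 7.21, 7.22 and 6.85% at 15 months and to 5.72, 8.13 and 8.27% at 21 months. All mice of 15 months lay below all mice of 6 months, by a mean of -0.26 on the log2 scale. CPM of Psmb10 amounted to 4.17, 2.07 and 3.20% of that of Psmb7 at 6 months, to 4.59, 4.01 and 2.51% at 15 months and to 3.41, 2.75 and 4.55% at 21 months, with no separation of ages. Two-sided exact permutation tests of these 3 ratios in the 3 comparisons gave p from 0.1 to 1.0, the lowest being Psmb8 to Psmb5 at 15 against 6 months, and 0.9 or more after Benjamini-Hochberg adjustment over the 9 tests. With 3 against 3 mice p cannot go below 0.1.

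**Figure D4:**
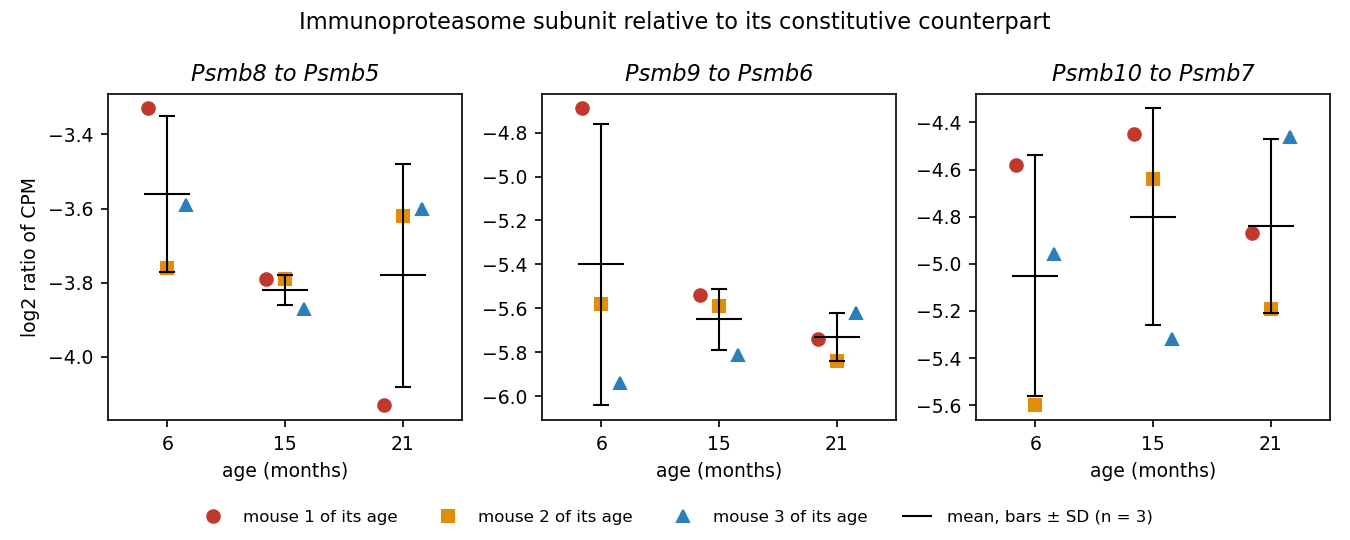
Log2 ratio of CPM of each immunoproteasome subunit to its constitutive counterpart (vertical axis, each panel on its own range) in each mouse against age, with mean and SD of 3 mice. The ratio of Psmb9 to Psmb6 is highest in mouse 1 of the 6-month group at -4.69, and the other 8 mice lie between -5.94 and -5.54.

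Genes that act beside the members were read from lists of the pathway. At 21 against 6 months 10.6% of all genes tested had an unadjusted p under 0.05 in either direction, edgeR called 0.0153%, DESeq2 1.53% and limma voom 0.452%, and the counts below stand beside these shares. Of the other class I and class I-like genes, 13 of 19 in the table passed the filter, and 0 passed the test at 21 against 6 months by edgeR or limma voom, 4 at an unadjusted p under 0.05, with 10 of 13 below 0 and a median of -0.18. The 3 genes of at least 5 CPM with the largest differences had the order of mice seen in H2-K1 and H2-D1. H2-Q4 stood at 32.1, 23.5 and 14.2 CPM in the 6-month mice and between 12.1 and 17.25 CPM in the older ones, H2-T23 at 29.8, 20.7 and 13.3 CPM against 9.56 to 17.1, and H2-Q6 at 29.0, 20.8 and 11.1 CPM against 8.89 to 15.6. Other genes of the list did not have this order. H2-Q7 stood at 8.61, 2.0 and 2.27 CPM at 6 months, mice 2 and 3 below all 6 older mice, which ran from 2.76 to 6.32 CPM, and H2-M3 stood at 3.77, 4.63 and 3.99 CPM at 6 months (both named after their values were seen). The log2 fold changes of H2-Q4, H2-T23 and H2-Q6 were -0.68 (SE 0.25), -0.70 (SE 0.28) and -0.72 (SE 0.30). DESeq2 called 1 gene of this list, H2-Q9, at -1.99 in edgeR's fit, named here after its value was seen. Reads of the Q genes are shared among near-identical copies, so the level of each is uncertain.

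Most chaperones and trimming enzymes of the peptide-loading path stood in the other direction, Hspa5, Pdia3 and Canx furthest and several trimming enzymes near 0. Of 14 measured, 13 were above 0 at 21 against 6 months with a median of 0.30, and every older mouse lay above every younger one in 8, as in 7.81% of all genes tested. By edgeR 0 passed, with 6 at an unadjusted p under 0.05, while DESeq2 and limma voom each called 4: Hspa5, Pdia3, Canx and Pdia4, the last named after its value was seen. Canx, the lectin chaperone that holds new heavy chains, stood at 121, 129 and 112 CPM at 6 months, 152, 175 and 149 CPM at 15 months and 201, 191 and 170.0 CPM at 21 months, a log2 fold change of 0.64 (SE 0.11, edgeR adjusted p = 0.0698) at 21 against 6 months. Pdia3, the disulfide isomerase bound to tapasin, stood at 76.1, 61.4 and 78.1 CPM at 6 months, 92.2, 112 and 91.7 CPM at 15 months and 123, 121 and 113 CPM at 21 months, at 0.73 (SE 0.12, edgeR adjusted p = 0.0698). Hspa5, a general chaperone of the endoplasmic reticulum, stood at 1.39 (SE 0.21, edgeR adjusted p = 0.0585). The following were named after their values were seen. Among the trimming enzymes Erap1 stood at 0.01 (SE 0.10), Npepps at 0.06 (SE 0.11) and Thop1 at 0.09 (SE 0.13). Tpp2, Lnpep and Ide stood at 0.19 (SE 0.09), 0.34 (SE 0.16) and 0.38 (SE 0.20). Tapbpl stood below 0, at -0.25 (SE 0.18). The general folding enzymes of the compartment thus lay above 0 in the same comparison in which 9 of 10 members lay below it.

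Proteasome activators and constitutive catalytic subunits had a median of -0.10, with 7 of 8 below 0. Past the test in edgeR, DESeq2 or limma voom were 0 of 8, and 0 had an unadjusted p under 0.05. Psme1, a subunit of the interferon-induced PA28 activator, stood at -0.18 (SE 0.15), Psme4, the PA200 activator, at -0.27 (SE 0.21) and Psmb7 at -0.17 (SE 0.14). Interferon receptors and signalling genes had a median of -0.05, with 11 of 20 below 0, 0 called by any of the 3 tools and 4 at an unadjusted p under 0.05. Stat2, a signal transducer of type I interferon, stood at -0.44 (SE 0.13), Irf9, its partner, at -0.32 (SE 0.18) and Jak1, a receptor kinase, at 0.33 (SE 0.16). Among factors of the class I promoter the median was -0.01, with 9 of 16 below 0. Of these 16 factors 0 were called by edgeR or limma voom, 2 had an unadjusted p under 0.05 and 1 was called by DESeq2. That gene was Nfkb2, a subunit of the noncanonical NF-kappa B pathway, at 0.84 (SE 0.18, edgeR adjusted p = 0.136, DESeq2 adjusted p = 0.00727). Relb, its partner, stood at 0.65 (SE 0.19) and Nfyb, a CCAAT-binding subunit, at 0.21 (SE 0.15).

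Interferon-stimulated genes had a median of -0.34 at 21 against 6 months, with 23 of 29 below 0, 0 called by edgeR or limma voom, 7 at an unadjusted p under 0.05 and 1, Gbp4, called by DESeq2. Iigp1, an immunity-related GTPase, stood at 159, 40.3 and 16.8 CPM in the 6-month mice and between 12.7 and 19.1 CPM in the older mice. Gbp4, a guanylate-binding protein, stood at 42.2, 31.9 and 16 CPM against 10.5 to 16.3 CPM, and Igtp at 65.7, 27.8 and 15.7 CPM against 13.6 to 26.0 CPM. In Iigp1, Gbp4 and Igtp the order of the young mice was that of the class I chains. Other genes had another order (named after their values were seen). Gbp7, of the same list, stood at 38.4, 18.2 and 22.5 CPM in the 6-month mice. Usp18, of the interferon receptor and signalling list, stood at 3.65, 4.63 and 4.48 CPM there. Without mouse 1 at 6 months the median of the interferon-stimulated list was -0.10, with 15 of its genes below 0.

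The sums of class II, macrophage, dendritic cell and T and NK cell markers were highest in mouse 1 at 6 months, and those of B and plasma cell and neutrophil markers were not. The 10 class II presentation genes, led by Cd74 and H2-Aa, summed to 309, 127 and 119 CPM in the 6-month mice and to 79.4 to 122 CPM in the 6 older ones, and 8 of 10 were highest in mouse 1. The 14 macrophage markers, among them Lyz2, summed to 368, 214 and 224 CPM against 122 to 289 CPM, with 11 of 14 highest in that mouse. Of 13 T and NK cell markers, of which 0 passed the filter, 10 were highest there, and they summed to 4.71 CPM (75 reads) in mouse 1 against 1.0 and 0.552 CPM in mice 2 and 3 and 0.421 to 1.3 CPM in the older mice. Cd4, the most abundant of these, had 6 reads in mouse 1 and 1 to 5 in the other mice, and Cd8b1 had 1 against 0 to 2. The T cell receptor genes Cd3d, Cd3e and Cd3g had 6, 5 and 9 reads in mouse 1 at 6 months and 0 to 2 reads in each of the other 8 mice (the Cd3 and Cd8b1 genes were named after their values were seen). Ifng, the gene of interferon gamma, had 2 reads in mouse 1 and 0 in the other 8. Endothelial markers, led by Flt1 and Pecam1, summed to 892, 629 and 693 CPM at 6 months against 674 to 875 CPM.

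Mouse 2 at 6 months, the second highest in 8 members, lay nearer to mouse 3 in the class II and macrophage lists. Its class II sum of 127 CPM compared with 119 CPM in mouse 3, its macrophage sum of 214 CPM with 224 CPM, and its endothelial sum of 629 CPM was the lowest of the 9 mice. Its 8 dendritic cell markers summed to 25.3 CPM against 32.9 and 28.6 CPM in mice 1 and 3 and 24.9 to 28.6 CPM in older mice. Most of these sums was Zbtb46, the most abundant of the list, at 20.3, 20.1 and 23.7 CPM in mice 1, 2 and 3. Cd209a, the next, stood at 4.53, 3.44 and 2.70 CPM. B and plasma cell markers (led by Jchain and Cd79a) summed to 1.44 to 1.63 CPM at 6 months and 1.60 to 4.21 CPM later. Neutrophil markers (led by Csf3r and S100a9) summed to 0.858 to 2.33 and 0.801 to 3.84 CPM. The part of these cells in the differences of the members was not tested. In RNA from whole muscle, fewer cells of a type and less RNA per cell cannot be told apart.

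**Figure D5:**
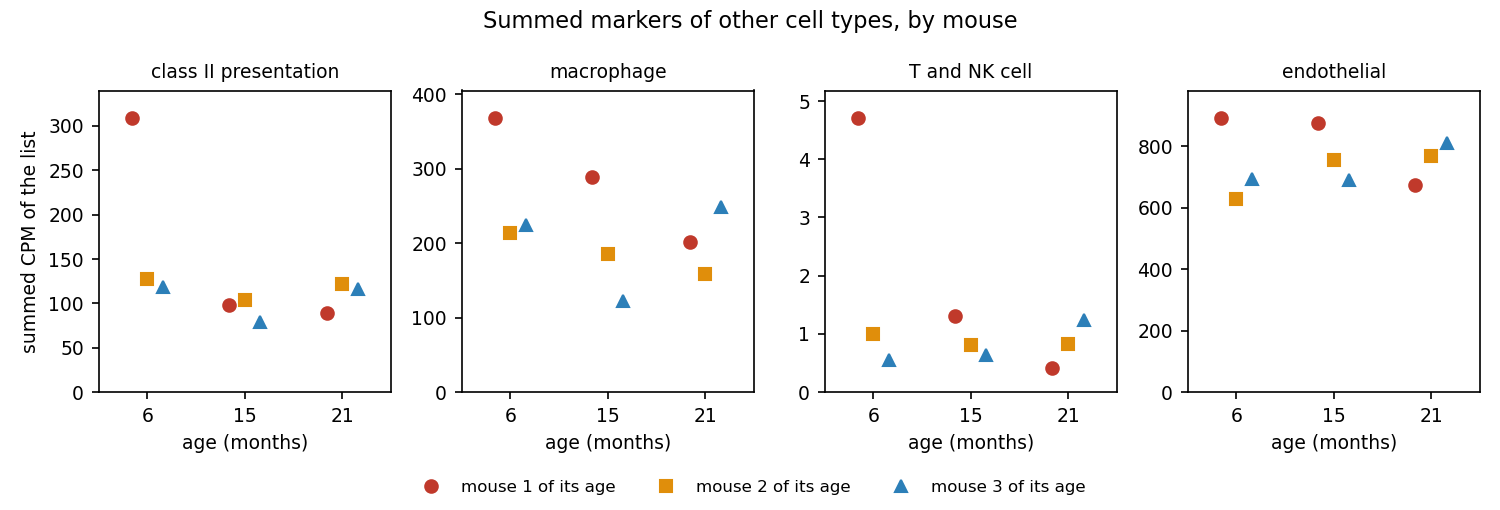
Summed CPM of 4 marker lists (vertical axes from 0, each panel on its own range) in each mouse against age. Mouse 1 of the 6-month group is the highest in each panel, at 309 CPM for class II genes and 4.71 CPM for T and NK cell genes, while mouse 2 of that group lies within or below the range of the other mice except for class II genes, where it is second.

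Satellite cell markers, led by Itga7 and Cdh15, summed to 202, 190.0 and 186 CPM at 6 months and 158 to 194 CPM later, with mouse 1 at 6 months again the highest. Fibro-adipogenic progenitor markers, led by Gsn and Dcn, summed to 2990, 4300 and 3860 CPM at 6 months and 2760 to 2970 CPM later, so mouse 1 was the lowest of its group. Sums ran from 737 to 1290 CPM for smooth muscle and pericyte markers, 71.9 to 171 CPM for Schwann cells, 175 to 401 CPM for adipocytes and 355 to 856 CPM for erythrocytes over the 9 mice. Most of the adipocyte sum was Fabp4, at 169.8 to 392.9 CPM, with 285.1 CPM in mouse 2 at 6 months. Adipoq and Lep (named after their values were seen) set that mouse apart. Adipoq had 9.326 CPM there against 0.1849 to 2.913 CPM in the other mice, and Lep 2.691 against 0.0601 to 0.7159 CPM. The part of adipocytes in the class I values of that mouse was not tested. Without the 3 libraries that stand apart in slow fibre genes the members' median at 21 against 6 months was -0.41, as with all mice, and 10 of 10 members were below 0.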

How the data were processed

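The authors deposited 1 table of estimated counts per gene for 9 libraries, with 90.0 to 90.7% of values whole within 0.005. TRIzol RNA was, per the labels' protocols, selected with oligo(dT) beads and sequenced from DNA nanoballs. Per the submitters' processing notes the build was mm10. Aligner, counter, annotation and strand setting: not given in the sources used here. Columns were matched to samples by life stage and number in the titles.

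Expected counts were rounded, filtered with filterByExpr (minimum count 10), scaled with TMM and fitted in edgeR 4.0.16 under R 4.3.3 (quasi-likelihood), age being the factor and all 9 libraries entering. Benjamini-Hochberg adjustment ran over the 13044 genes tested (threshold 0.05). Replicate libraries differed by far more than sampling noise, at 10.5 to 74.5 chi-square per degree of freedom. The design text speaks of separate mice.

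Levels per kilobase used merged exons of GENCODE M21 (GRCm38). Of 17314 Entrez IDs, 17188 were found in the RefSeq table that gave coordinates, and promoter windows are RefSeq's. Alternatives were DESeq2 1.42.0, limma 3.58.1 voom with quality weights, RLE and total count scaling, no filter, at least 5 CPM in 3 libraries, a block on replicate number, fitting only 2 ages, leaving out each library, and leaving out 3 libraries together. The procedure was tested on simulated data.

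Members and lists were chosen with earlier results of these data known. All members are named, and of each pathway list the 3 genes of at least 5 CPM with the largest difference at 21 against 6 months. Of each marker list the 2 most abundant are named, save for T and NK cells, where only the most abundant is. Genes named after their values were seen are marked. A marker that the rule would name is not reported here.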

Additional observations from a re-analysis of the deposited data

How the results depend on the processing

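The members' direction against 6 months did not hang on the tool or the scaling, apart from Psmb10. At 21 against 6 months between 9 and 10 of 10 members were below 0 in each alternative, or 7 of 8 under the filter of 5 CPM, which drops Nlrc5 and Psmb9. The median ran from -0.62 (mouse 3 at 6 months left out) to -0.19 (mouse 1 left out). At 15 against 6 months it ran from -0.59 to -0.17. The count of members called at 21 against 6 months was 1 (Tap1) with DESeq2, ran from 0 to 1 when 1 library was left out, and was 0 in each other alternative. In the test of any difference DESeq2 called 1 member.

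Psmb10 changed sign at 21 and at 15 against 6 months with quality weights (-0.17 and -0.04) and without the 3 outlying libraries (-0.24 and -0.17), and ran from -0.13 to 0.29 and from -0.06 to 0.31 with 1 library left out. The cause was not tested. At 21 against 15 months, where values lie near 0, B2m stood at 0.00025 with total count scaling and Tap2 at 0.03 without the 3 outlying libraries. With 1 library left out the ranges there were -0.07 to 0.03 for B2m, -0.09 to 0.04 for H2-D1, -0.13 to 0.08 for Tap2, -0.03 to 0.05 for Tapbp, -0.01 to 0.19 for Psmb8, -0.14 to 0.01 for Psmb9 and -0.22 to 0.16 for Psmb10.

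The ratios to constitutive subunits changed sign when 1 library was left out in 6 of 9 cases. Psmb8 to Psmb5 ran from -0.06 to 0.21 at 21 against 15 months. Psmb9 to Psmb6 ran from -0.60 to 0.03 at 21 against 6 months and from -0.51 to 0.11 at 15 against 6 months. Psmb10 to Psmb7 ran from -0.07 to 0.44, from -0.03 to 0.51 and, at 21 against 15 months, from -0.30 to 0.14. Without mouse 1 at 21 months 5 members were below 0 at 21 against 15 months.

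Same-numbered mice had correlations over genes of -0.166 to 0.191 at 21 against 6 months and -0.099 to 0.406 at 15 against 6 months. At 21 against 15 months these were -0.418 to 0.074. Mice of different number had -0.310 to 0.341, -0.369 to 0.347 and -0.354 to 0.402 in that order. A pairing by number did not show in these ranges, and a shared batch was not tested. With the replicate block 0 members were called in each comparison, and the medians were -0.38, -0.34 and -0.04 in that order. Tap1 stood at -1.10 (edgeR adjusted p = 0.256) at 21 against 6 months with the block. The block left the ratios as they were, with a smallest possible exact p of 0.25.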

Other observations

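Among genes that are no members, those whose pattern over the 9 mice was most like the members' mean were found by the root mean square difference of centred log2 CPM, over 9960 genes of at least 5 CPM. The members' mean stood at 0.68, 0.29 and -0.19 in the 6-month mice and between -0.26 and -0.04 in the older ones. The likest were Xdh (xanthine dehydrogenase, difference 0.093), Gvin2 (a large interferon-induced GTPase, 0.095), Gbp9 (a guanylate-binding protein, 0.112), Slc43a3 (a purine base transporter, 0.115) and Gbp2 (on the list of interferon-stimulated genes, 0.124), followed by Miip, Adgrg1, Klf6, Cttnbp2nl and Dennd3 (0.132 to 0.141). The median over all genes compared was 0.323. Members themselves ran from 0.063 for H2-D1 to 0.343 for Psmb10. Xdh stood at 114, 104 and 64.6 CPM at 6 months and between 61.5 and 81.8 CPM later. Gvin2 stood at 30.5, 21.0 and 14.7 CPM at 6 months and between 13.0 and 17.4 CPM later. At 21 against 6 months 0 of these 10 genes passed in edgeR, with log2 fold changes from -0.57 for Slc43a3 to -0.26 for Miip. They were chosen on the same values and carry no separate support.

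Jchain, the joining chain of secreted antibodies, had a higher mean at 21 than at 6 months, at low levels throughout. It stood at 0.440, 0.376 and 0.245 CPM at 6 months, 0.186, 0.863 and 0.569 CPM at 15 months and 2.46, 0.656 and 1.11 CPM at 21 months. The log2 fold change at 21 against 6 months was 1.98 (SE 0.61, edgeR adjusted p = 0.269) and did not pass. Jchain passed the filter on low counts only through the mice of 21 months, where it was high. The comparison therefore gives no support for a difference.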
